A study of Mus musculus with 2 samples.

Results

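The nuclear factor I (NFI) family of transcription factors consists of Nfia, Nfib, Nfic and Nfix. Its members were taken by gene symbol, 4 of 23950 symbols in the deposited tables, and each symbol had a single entry. RNA-seq of mouse optic nerve at postnatal day 12 gave 1 library labelled control, from Hdac3f/+; Olig1-cre animals, and 1 library labelled Hdac3 cKO, from Hdac3f/f; Olig1-cre animals, on a mixed strain background. Hdac3 encodes a histone deacetylase, f marks an allele that Cre recombinase can delete, and Cre is driven from Olig1, a gene of the oligodendrocyte lineage. Both groups carry Cre and at least 1 deletable allele, and cells that never express Olig1 keep Hdac3. The sources used here do not give the number of animals per library. The study concerns the choice between oligodendrocyte and astrocyte fates.

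NFI proteins bind DNA as dimers at a palindromic site through a conserved N-terminal domain, while their C-terminal parts activate or repress transcription. NFIA and NFIB are induced as neural progenitors turn to making glia, NFIA acts with SOX9 in that step, and the family binds regulatory DNA of astrocyte genes such as Gfap. In the developing spinal cord NFIA and SOX10 oppose each other, NFIA on the side of astrocytes and SOX10 on the side of myelinating oligodendrocytes.

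The members are close paralogs, so their coding sequences were compared first, using the longest complete coding sequence of each gene in GENCODE M21 (GRCm38). These were 1530 bases long for Nfia, 1713 for Nfib, 1386 for Nfic and 1485 for Nfix. The following stretch of 60 bases is the one most alike in all 4 genes, with 48 shared columns. Capitals mark the 12 columns that differ between members, all of which lie at the third position of a codon.
Nfia: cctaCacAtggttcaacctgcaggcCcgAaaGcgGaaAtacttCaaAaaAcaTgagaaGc
Nfib: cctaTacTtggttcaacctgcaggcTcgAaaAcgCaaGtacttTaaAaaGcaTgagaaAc
Nfic: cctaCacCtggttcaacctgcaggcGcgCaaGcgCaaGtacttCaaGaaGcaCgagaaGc
Nfix: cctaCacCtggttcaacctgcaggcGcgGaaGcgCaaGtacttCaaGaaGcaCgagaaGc
The stretch runs from coding base 80 to 139 in Nfia, 83 to 142 in Nfib, 149 to 208 in Nfic and 56 to 115 in Nfix, within the part that encodes the N-terminal domain. Over the first 600 coding bases of Nfia, pairs of members were 71.7% (Nfia and Nfic) to 78.5% (Nfic and Nfix) identical. Over the rest of the alignment the identity was 55.2% (Nfib and Nfix) to 66.7% (Nfia and Nfix). The longest run that any pair of coding sequences shared exactly was 32 bases, between Nfic and Nfix. Among all annotated transcripts of the family, 0 stretches of 36 bases occurred in more than 1 member. The sources used here give no read length. Reads that are at least 36 bases long and match exactly can therefore be told apart between members.

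The unit is FPKM, fragments scaled to transcript length and to library size, which allows levels of different genes to be compared within a library. Each value has a deposited interval, which covers neither the variation between animals nor all of the estimation error, since 15.9% (control) and 33.0% (cKO) of genes at 1 FPKM or more lay outside their own interval. The intervals also differed in width between libraries. The median interval reached 7.53% to either side of its midpoint in control and 4.23% in cKO, over 8770 genes at 5 FPKM or more in both. The depth is unknown, and with 1 library per group no difference has a replicate check or a p-value. Differences are log2 of (cKO FPKM + 1) over (control FPKM + 1). They describe these libraries, and they are smaller than the change in FPKM for low genes. A gene was tested at 1 FPKM or more in at least 1 library (14154 genes), and it was called when the difference was at least 2-fold and the intervals did not overlap. Hdac3 itself measured 36.4 FPKM in control against 38.0 in cKO, and both values lay above their own intervals. Its log2 difference was 0.06 as deposited and -0.01 to -0.26 under 5 other scalings. Values for a whole gene do not show which exons were read, so the genotype labels remain unchecked.

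All 4 NFI genes were expressed at moderate levels in both libraries, and all 4 were higher in the cKO-labelled library, by 1.41 to 1.64 times in FPKM. Each pair of intervals was separate, and all 8 member values lay inside their own intervals. None of the differences reached 2-fold, so 0 of 4 members were called, where 4.73% of all genes tested were called higher. At 1.5-fold with separate intervals 1 of 4 members, Nfix, was called, where 16% of all genes tested were called higher. Nfic, at a ratio of 1.51 in FPKM, fell just short of 1.5-fold on the FPKM + 1 scale that the calls use. Separate intervals with the higher value in the cKO-labelled library were found for 38.4% of all genes tested, which is the share against which the 4 of 4 members on this looser rule are read. In bulk tissue, a change in the number of cells of a type and a change in RNA per cell cannot be told apart.

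Nfia (chromosome 4, 97248634 to 97785567, mm9, a locus with 2 start site groups), the member that starts gliogenesis in the spinal cord, measured 13.3 FPKM (interval 12.7 to 13.9) in control and 19.5 FPKM (19.3 to 20.2) in cKO. The ratio was 1.47, and the log2 difference was 0.52 (0.44 to 0.63 from the interval bounds). Nfib (chromosome 4, 81936077 to 82151683, 1 start site group), which also acts in glial and cortical development, was at 13.9 FPKM (13.3 to 14.6) in control and 19.6 FPKM (19.5 to 20.3) in cKO. Its ratio was 1.41 and its log2 difference 0.47 (0.39 to 0.57), the smallest of the family.

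Nfic (chromosome 10, 80858936 to 80889918, 1 start site group), best known for its role in tooth root formation, was at 25.4 FPKM (24.6 to 26.6) in control and 38.5 FPKM (38.3 to 39.7) in cKO. Its ratio was 1.51 and its log2 difference 0.58 (0.51 to 0.67). Nfix (chromosome 8, 87228611 to 87324237, 2 start site groups), which acts in neural and muscle development, was at 23.6 FPKM (22.7 to 24.8) in control and 38.9 FPKM (38.6 to 40.1) in cKO. Its ratio of 1.64 and its log2 difference of 0.69 (0.62 to 0.79) were the largest of the family. Among all genes tested, 13.2% had a larger log2 difference than Nfix, 17.6% than Nfic, 20.3% than Nfia and 23.2% than Nfib.

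**Figure D1:**
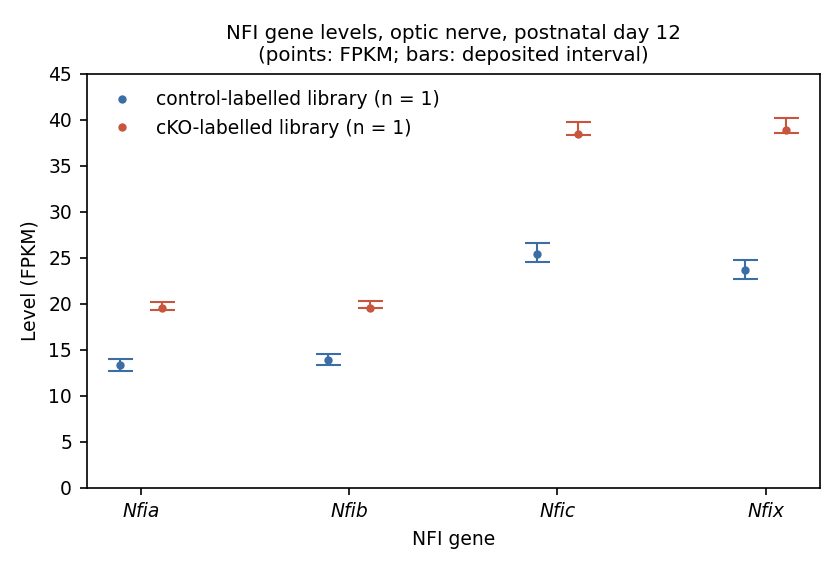
Level in FPKM of each NFI gene in the control-labelled library and the cKO-labelled library, 1 library each. Points are the deposited values and bars the deposited intervals. The cKO value is higher for all 4 genes, and Nfic and Nfix lie above Nfia and Nfib in both libraries.

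The order of levels had a lower pair and an upper pair in both libraries. Nfia and Nfib did not differ beyond their intervals in either library, and neither did Nfic and Nfix, whose order was reversed between libraries. Every interval of the upper pair lay above every interval of the lower pair in the same library. In the control-labelled library 63.8% of genes tested had a lower level than Nfia, 65.0% than Nfib, 79.6% than Nfic and 78.2% than Nfix. In the cKO-labelled library these percentages were 72.6% for Nfia, 72.6% for Nfib, 85.7% for Nfic and 85.8% for Nfix.

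The make-up of the family, which no scaling of a library can alter, was nearly the same in both libraries. The summed level was 76.3 FPKM in control and 116 FPKM in cKO, a ratio of 1.53 and a log2 difference of 0.60. Nfia held 17.4% of that sum in control and 16.8% in cKO, Nfib 18.2% and 16.8%, Nfic 33.4% and 33.0%, and Nfix 31.0% and 33.4%. For each member the ranges that the intervals allow for its share overlapped between libraries, and the widest gap was the 2.38 percentage points of Nfix (29.2% to 32.9% in control, 32.5% to 34.2% in cKO). Of the 6 pairs within the family, the ratio that moved most was that of Nfib to Nfix, from 0.588 in control to 0.504 in cKO, a ratio of 0.857 between libraries (0.756 to 0.977 from the interval bounds). For the other 5 pairs the range from the bounds included 1.

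The size of these differences depends on how the libraries are scaled to each other, because the deposited FPKM summed to 439258 in control and 553903 in cKO over 1 entry per symbol. The median log2 difference of all genes tested was 0.12 as deposited, between 0 and 0.05 under 4 other scalings and -0.16 when both libraries were scaled to the same sum. Symbols of small RNAs held 11.4% of the sum in control and 25.3% in cKO, which enters that last scaling. All 4 members stayed above 0 with separate intervals under all 6 scalings, and 0 were called under any of them. Of all genes tested, 61.4% were above 0 as deposited and 35.5% at the same sum. Separate intervals with the higher value in cKO were found for 38.4% of all genes tested as deposited and 19.4% at the same sum. Of all genes called, 51.2% were higher as deposited and 18.3% under scaling to the same sum.

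With both libraries scaled to the same sum, the log2 difference was 0.21 for Nfia, 0.15 for Nfib, 0.25 for Nfic and 0.37 for Nfix, the lowest values of the 6 scalings. Without the small RNA symbols the same scaling gave 0.44 for Nfia, 0.38 for Nfib, 0.49 for Nfic and 0.61 for Nfix. Each scaling applies 1 factor or 1 log2 shift to all genes, so the members and the median of all genes move together by construction.

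**Figure D2:**
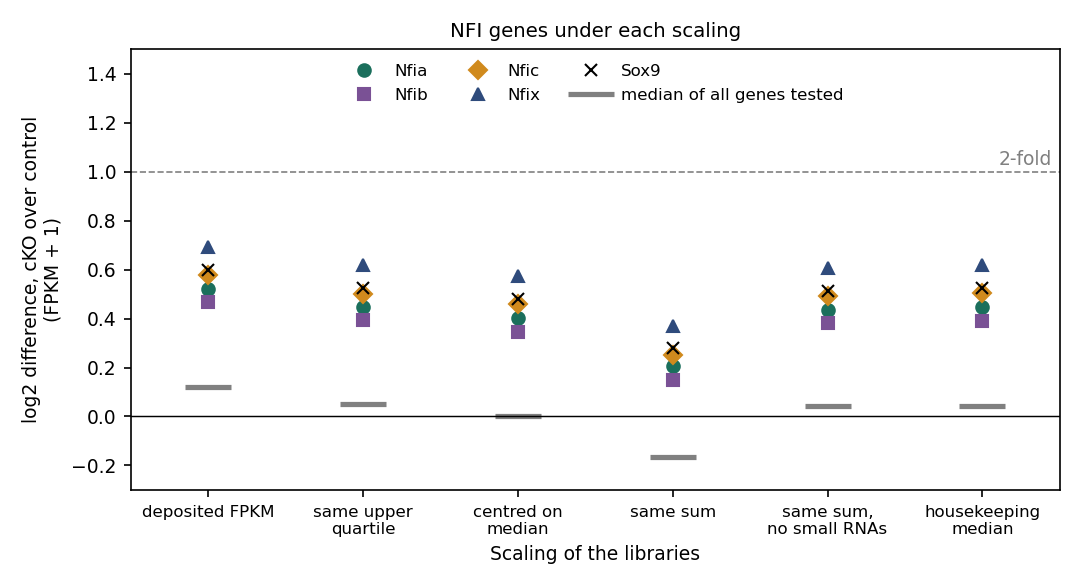
Log2 difference of each NFI gene and of Sox9 under 6 scalings of the libraries, with grey bars for the median of all genes tested. The dashed line marks 2-fold. All members lie below the dashed line under the 6 scalings, and the members, Sox9 and the grey bar shift together, to their lowest values under scaling to the same sum.

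Sox9, the factor that acts upstream of Nfia and then beside it, measured 16.3 FPKM in control (14.9 to 16.9) and 25.2 in cKO, above its own interval of 23.6 to 24.9. Its log2 difference of 0.60 lay between those of Nfic and Nfix, and was 0.28 under scaling to the same sum. Among 33 tested genes in the lists of partners and targets, Sox9 was the gene nearest to each NFI member by distance in log2(FPKM + 1) over the 2 libraries. The distance was 0.41 for Nfib, 0.45 for Nfia, 0.79 for Nfix and 0.85 for Nfic. The next nearest was Rbpj for Nfia, Nfib and Nfix, at distances of 0.61, 0.55 and 0.94, and Stat3 for Nfic, at 0.94. With 2 libraries this likeness rests mostly on the level.

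Ratios within a library are free of scaling. The summed NFI level was 4.68 times that of Sox9 in control and 4.62 times in cKO, a ratio of 0.987 between libraries (0.867 to 1.17 from the interval bounds). The same ratio between libraries was 0.949 for Nfia, 0.911 for Nfib, 0.978 for Nfic and 1.06 for Nfix, each with bounds that included 1. Against Aldh1l1, a folate enzyme used as an astrocyte marker, it was 1.03 for Nfia, 0.992 for Nfib, 1.06 for Nfic and 1.16 for Nfix (1.04 to 1.33 from the bounds). Against Slc1a3, an astrocyte glutamate transporter, it was 0.880 for Nfia, 0.845 for Nfib and 0.907 for Nfic and 0.986 for Nfix. Both values of Aldh1l1 and of Slc1a3 lie above their own intervals, so the bounds of these ratios do not settle on which side of 1 they lie.

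Against Sox10, which drives oligodendrocyte differentiation, the ratios of all 4 members were 7.69 to 8.98 times higher in the cKO-labelled library. Nfia was at 0.0952 of the Sox10 level in control and 0.763 in cKO, an 8.02-fold difference (7.04 to 9.18 from the bounds). The difference was 7.69-fold (6.81 to 8.80) for Nfib, 8.26-fold (7.34 to 9.35) for Nfic and 8.98-fold (7.93 to 10.2) for Nfix. The summed NFI level was 0.546 times the Sox10 level in control and 4.55 times in cKO. Sox10 itself measured 139.6 FPKM in control against 25.6 in cKO. Both Sox10 values and the cKO value of Sox9 lie above their own intervals, so the bounds of these ratios do not centre on the values.

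**Figure D3:**
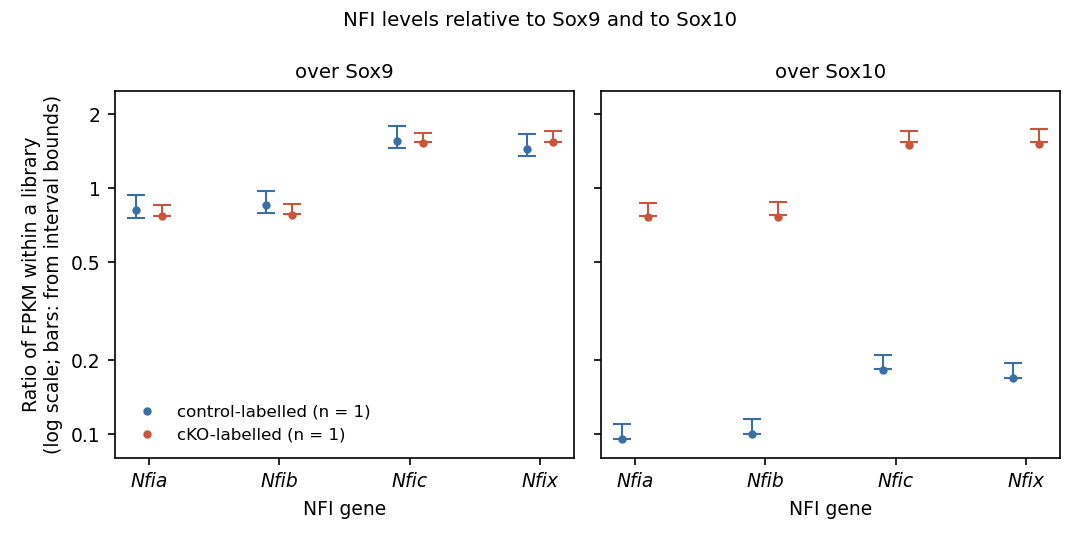
Ratio of the level of each NFI gene to that of Sox9 (left) and Sox10 (right) within the control-labelled and the cKO-labelled library, on a log axis. Points are ratios of FPKM, and bars span the ratios that the deposited interval bounds allow, so some points lie outside them. The ratios to Sox9 lie close together in both libraries, and those to Sox10 are 7.69 to 8.98 times higher in cKO.

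All 6 transcription factors of the oligodendrocyte lineage on the list were called lower, where 4.51% of all genes tested were, with a median log2 difference of -2.37. Olig2, which specifies the lineage, measured 92.2 FPKM in control against 17.8 in cKO. Nkx2-2, a repressor of precursor genes in that lineage, was at 18.5 and 2.86 FPKM. Myrf, which switches on myelin genes, was at 106 and 19.1 FPKM. The control values of all of these factors but Nkx2-2 lie above their own intervals.

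Of 12 genes known as partners or upstream factors of NFI on the astroglial side, 11 were tested, 0 were called in either direction, and the median log2 difference was 0.35. Of these, 9 of 11 differences were above 0, against 61.4% of all genes tested, and 6 of 11 were above 0 under scaling to the same sum, against 35.5% of all genes tested. Atf3, a stress-induced factor that can act with NFIA in astrocytes, measured 3.76 FPKM in control against 6.26 in cKO (log2 0.61). Zbtb20, a zinc finger factor that promotes astrocyte formation, was at 1.20 and 1.92 FPKM (log2 0.41). Notch1, the receptor whose signal induces NFIA in progenitors, was at 11.8 and 11.4 FPKM (log2 -0.05). Its nuclear effector Rbpj was at 20.8 and 20.0 FPKM (log2 -0.05), and both pairs of intervals overlapped. Emx2, a forebrain patterning factor, had the largest difference, at 1.39 and 3.30 FPKM (log2 0.85), and was called higher with a pseudocount of 0.1. Ep300, which encodes the acetyltransferase p300, was at 8.92 and 9.48 FPKM (log2 0.08), and Runx2 was below 1 FPKM in both libraries and not tested.

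Of 10 glial genes that NFI proteins are known to bind or activate, 8 were tested, 0 were called, where 4.73% of all genes tested were called higher. Differences above 0 were found for 7 of 8, against 61.4% of all genes tested, and the median was 0.74, against 0.12. Under scaling to the same sum the median was 0.41, against -0.16. Sparcl1, a secreted astrocyte glycoprotein, measured 864 FPKM in control against 1632 in cKO (log2 0.92), and Serpina3n, a protease inhibitor, at 223 and 421 (log2 0.91). S100b, a calcium-binding protein of glia, was at 324 and 561 FPKM (log2 0.79), and Slc1a3 at 288 and 481 (log2 0.74). The cKO values of all 8 tested genes of this list lie above their own intervals. Among the genes reported as joint targets of NFIA and SOX9, Apcdd1, a Wnt inhibitor, was at 47.0 and 79.8 FPKM (log2 0.75). Zcchc24 was at 51.5 and 79.2 FPKM (log2 0.61), and Mmd2 at 192 and 228 FPKM (log2 0.25).

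Fabp7, the fatty acid binding protein of radial glia and immature astrocytes, went the other way. It measured 220 FPKM in control against 122 in cKO (log2 -0.85), both above their own intervals (157 to 171 and 87.3 to 94.0). It was called lower under scaling to the same sum (log2 -1.18). Gfap, the intermediate filament gene of astrocytes, could not be compared. It was at 3997 FPKM in control and was listed at 0 in cKO with the status for too many fragments at a locus, so its cKO level is unknown.

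The upstream sequences of the targets were searched for TTGGC, the motif that forms each arm of the NFI palindrome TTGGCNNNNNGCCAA, on both strands in the 250 bases before the RefSeq start sites (GRCm38.p6). Of 7 glial targets with an entry, 4 held it (Fabp7, Mmd2, S100b and Zcchc24), against 41.5% of all 32851 promoters, and 0 held the palindrome, which 0.0365% of all promoters held. Fabp7 and S100b are shown because the former was lower and the latter higher in the cKO-labelled library, and Nfix because it is a member that holds the motif. Of the 6 promoters listed for Nfia, Nfic and Nfix, 2 held it, both of Nfix. Capitals mark the motif or its reverse complement GCCAA.
Fabp7, chr10:57784673-57784922, plus strand: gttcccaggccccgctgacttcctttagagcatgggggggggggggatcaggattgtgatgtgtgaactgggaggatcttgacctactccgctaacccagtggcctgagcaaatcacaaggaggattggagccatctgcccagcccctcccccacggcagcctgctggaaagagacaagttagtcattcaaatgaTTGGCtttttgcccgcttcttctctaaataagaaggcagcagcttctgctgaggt
S100b, chr10:76253586-76253835, plus strand: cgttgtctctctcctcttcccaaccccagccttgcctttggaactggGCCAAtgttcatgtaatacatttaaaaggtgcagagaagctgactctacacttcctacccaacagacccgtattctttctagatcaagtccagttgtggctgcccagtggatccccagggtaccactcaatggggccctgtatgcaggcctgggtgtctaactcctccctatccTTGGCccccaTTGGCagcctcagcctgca
Nfix, chr8:84775829-84776078, minus strand: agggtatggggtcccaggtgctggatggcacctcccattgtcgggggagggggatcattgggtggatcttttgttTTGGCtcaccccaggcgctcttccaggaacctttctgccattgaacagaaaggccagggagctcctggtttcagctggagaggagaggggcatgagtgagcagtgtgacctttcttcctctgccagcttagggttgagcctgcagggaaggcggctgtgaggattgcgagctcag
Counted back from the start site, the match begins at base -55 in Fabp7, at bases -203, -29 and -19 in S100b and at base -175 in Nfix. A match is a run of letters and does not show binding, and the coordinates of these windows are of another build than the mm9 loci of the expression tables. The motif was present both in a target that was lower and in targets that were higher.

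Of 5 tested genes known to be repressed by NFI proteins, 2 were called lower and 0 higher, where 4.51% of all genes tested were called lower and 4.73% higher. The median log2 difference was -0.69, and 4 of 5 were below 0, where 61.4% of all genes tested were above it. Mbp, the myelin basic protein gene, measured 15976 FPKM in control against 2013 in cKO (log2 -2.99), with both values outside their own intervals, and Insc, which orients cell divisions, at 10.9 and 1.83 FPKM (log2 -2.07). Mbp is also on the list of markers of myelinating oligodendrocytes below, so it is counted in both lists. Ezh2, the methyltransferase of Polycomb complex PRC2 and a target that NFIB represses, was at 14.9 and 8.83 FPKM (log2 -0.69) with separate intervals. Bbx was at 5.67 and 5.39 FPKM (log2 -0.06). Hes1, a Notch effector, was at 6.48 and 7.73 FPKM (log2 0.22), with overlapping intervals and a sign that turned under scaling to the same sum. Of 4 genes that NFI proteins activate in cerebellar granule neurons, 3 were tested and all 3 were below 0. Of these, 1 was called lower, where 4.51% of all genes tested were. This was Ephb1, an ephrin receptor, at 36.9 and 6.94 FPKM (log2 -2.25). Cdh2, the N-cadherin gene, was at 20.6 and 14.0 FPKM (log2 -0.53), and Cntn2, an axonal adhesion molecule, at 1.40 and 0.501 FPKM (log2 -0.68).

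**Figure D4:**
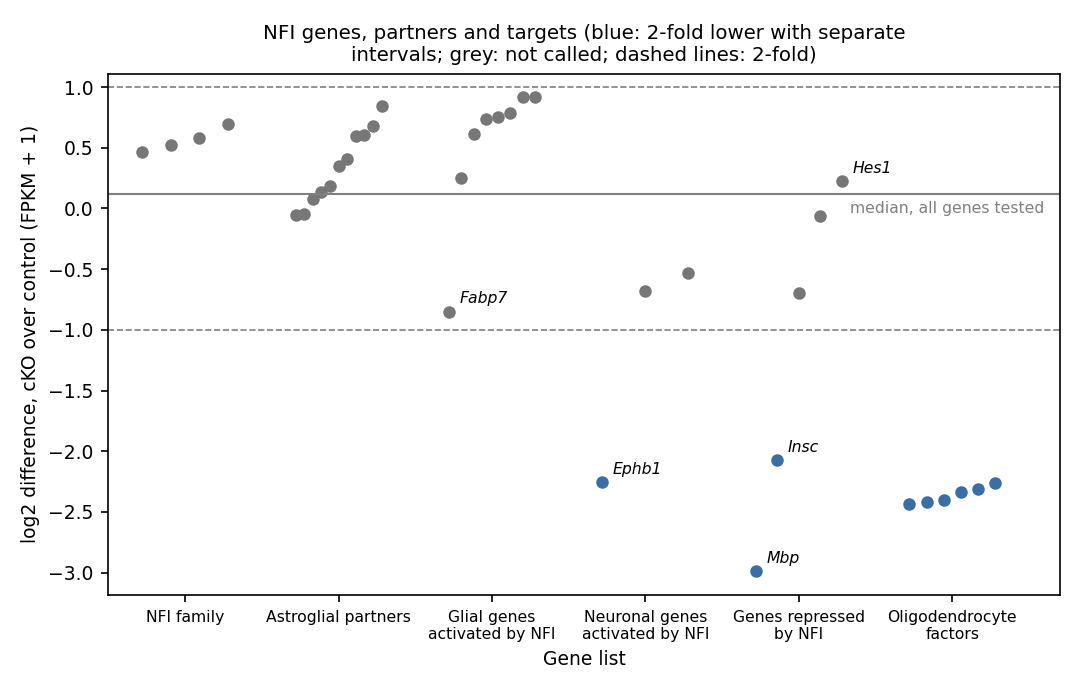
Log2 difference of every tested gene in the NFI family and in the 5 lists of partners and targets, 1 point per gene, ordered within each list. Blue points were called lower, grey points were not called, dashed lines mark 2-fold and the grey line is the median of all genes tested. The NFI genes span 0.47 to 0.69, and the 6 oligodendrocyte factors lie below -2.

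NFI genes are expressed in many cell types, so markers of the cells in the nerve are set beside them. The counts above 0 are of deposited FPKM, where 61.4% of all genes tested were above 0. At the same sum 35.5% of all genes tested were above 0, with 10 of 11 astrocyte and all 6 fibroblast markers. The other marker lists were counted only as deposited. Of 11 tested astrocyte markers 10 were above 0, with a median of 0.69 and a summed level of 1455 FPKM in control and 2480 in cKO, and Gfap was listed at 0 in cKO as described. Slc1a3 and Gfap are on both this list and that of glial targets. All 6 markers of fibroblasts were above 0, with a median of 1.34 and sums of 1528 and 3588 FPKM. Dcn, a matrix proteoglycan and the one of these with the largest difference, was at 138 and 429 FPKM (log2 1.63). The ratio of Nfix to Dcn in cKO was 0.530 of that in control, and for the other members it was 0.473 (Nfia), 0.454 (Nfib) and 0.487 (Nfic). All 6 markers of mural cells were above 0, with a median of 0.72 and sums of 251 and 452 FPKM. All 6 endothelial markers were above 0 (median 0.30, lowest 0.05, sums of 122 and 152 FPKM). Of 7 microglial markers 5 were above 0 (median 0.69, lowest -0.19, sums of 230 and 361 FPKM).

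All 3 tested Schwann cell markers were above 0 (median 0.80, sums of 98.1 and 172 FPKM), and so were 6 of 7 neuronal markers (median 0.29, sums of 40.9 and 58.6 FPKM). Among the neuronal markers Nefl had the largest difference, at 11.6 and 29.5 FPKM (log2 1.28). Tubb3, the neuronal marker below 0, was at 12.7 and 6.24 FPKM (log2 -0.92) with separate intervals. All 10 markers of myelinating oligodendrocytes were below 0 (median -2.68, sums of 28628 and 3896 FPKM). Of 8 markers of oligodendrocyte precursors 6 were below 0 (median -0.67, sums of 406 and 205 FPKM). Within these sums Gpr17 was at 215 and 37.2 FPKM. The 2 markers above 0 were Pdgfra, at 35.4 and 38.8 FPKM, and Ptprz1, at 51.8 and 56.4 FPKM. Matn4, counted below 0, was at 48.9 and 48.8 FPKM. All 10 markers of myelinating oligodendrocytes and 3 of the 8 of precursors were called lower, where 4.51% of all genes tested were. Called higher were 5 of 6 fibroblast, 2 of 11 astrocyte, 1 of 6 mural and 1 of 7 neuronal markers. No marker of the other lists was called higher, and the share over all genes tested was 4.73%. The part of each cell type in the NFI values was not tested.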

How the data were processed

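RNA-seq was done on optic nerve from 1 control and 1 Hdac3 cKO library at postnatal day 12. The authors deposited FPKM per gene with interval bounds and a status, per the file headers. CASAVA, TopHat, Cufflinks and the mm9 build are named in the submitters' processing notes, without versions. The sources used here give no annotation, read length, normalisation mode or depth, so precision is known only from the deposited intervals. Both tables were joined on symbol, start site group and locus (24460 entries), and a symbol with several entries was represented by the entry of highest summed FPKM. Genes were tested at status OK in both libraries and 1 FPKM in at least 1. Differences were computed in Python 3.11.15 with pandas 2.3.3 on log2(FPKM + 1), unscaled, and called at 2-fold with separate intervals. The call rule was tested on simulated data in which every value lay inside its own interval. Values of these libraries often do not, so that test does not give the error rate of the calls here. Ranges for ratios combine opposite interval bounds. The other scalings used the upper quartile, the median difference, the sum, the sum without small RNA symbols and 10 housekeeping genes. Coding sequences were aligned with MAFFT 7.526. Symbols with sequence entries were matched to RefSeq tables of GRCm38.p6 (3 of 4 members).

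The members and gene lists came from general knowledge and were chosen with earlier results of these data known. The text names the members, Hdac3, genes of the partner and target lists, and the 2 listed genes nearest to each member. Aldh1l1, Dcn, Gpr17, Pdgfra, Ptprz1, Matn4, Nefl and Tubb3, from the marker lists, were named after their values were seen.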

Additional observations from a re-analysis of the deposited data

Results flagged for a closer look

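Gfap, a target of the NFI family, was set apart as a strong signal outside every comparison. Its control level was 3997 FPKM, and its cKO value is listed at 0 without an estimate, with the status for too many fragments at the locus. The most studied NFI target in astrocytes is therefore missing from the counts of glial targets.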

How the results depend on the processing

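All members and their sum stayed above 0 in each of 8 alternatives (another pseudocount, scaling or choice of entry), and 24 of 40 such values left the range given by the deposited intervals. Of all genes tested, 61.4% were above 0 as deposited and 35.5% at the same sum. In the order Nfia, Nfib, Nfic, Nfix and family sum, the log2 difference was 0.45, 0.39, 0.50, 0.62 and 0.53 after scaling to the same upper quartile. It was 0.40, 0.35, 0.46, 0.57 and 0.48 after centring on the median, 0.21, 0.15, 0.25, 0.37 and 0.27 at the same sum, and 0.44, 0.38, 0.49, 0.61 and 0.52 at the same sum without small RNAs. With a pseudocount of 5 Nfia was at 0.42, Nfib at 0.38 and Nfix at 0.62, and with the housekeeping list Nfib was at 0.39 and Nfic at 0.50. These shifts follow from the construction of each scaling. At 1.5-fold on FPKM + 1 with separate intervals 1 member (Nfix) was called. Under that rule 10 of 33 tested partner and target genes were called higher, where 16% of genes tested were. With a pseudocount of 0.1, 1 such gene (Emx2) was called higher, and 0 in the other settings. Partner and target genes called lower numbered 9 to 12 in the 12 alternatives. In the main setting they were 9 of 33, where 4.51% of all genes tested were called lower, and 6 of these are the oligodendrocyte factors. No paired analysis was possible because each group has 1 library, and no library could be left out. Depth is unknown, so what it limits could not be computed.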
